A study of Oikopleura dioica with 8 samples.

Results

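The *O. dioica* count table held 17212 gene models. The mRNA and ribosome occupancy of 2 that were annotated as cardiac-type myosin-binding protein C (MyBP-C), GSOIDT00008618001 and GSOIDT00011789001, are described here. They were chosen by this annotation, which the study took from Blast2GO, a tool that names genes by sequence similarity, and they were the only gene models so annotated in the 1998 rows of the annotation table used here. Both had the 100 reads, summed over libraries, that were required for testing, as did 14595 gene models in all. Whole animals were collected on day 7 of growth arrest (stasis), which was induced by holding them at high density on reduced food. Others were collected 30 min after transfer to normal density in the presence of food (release), so that density and food cannot be told apart. Each state had 2 biological replicates, each a pool of many animals, and from each pool 1 library was made from total RNA, extracted from a portion of the animals, and 1 from ribosome protected fragments (RPF), the pieces of mRNA that ribosomes shield from nuclease. RPF reads set against total RNA reads give the translational efficiency (TE) of a gene model. No animals grown without arrest were among the samples used here, so that stasis is the only reference.

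MyBP-C is an accessory protein of the thick filament. In vertebrate striated muscle it binds myosin and also actin, and it tunes the cycling of cross-bridges. The cardiac form of vertebrates is regulated by phosphorylation. In *O. dioica* the striated muscle of the tail drives water through the filter house. In whole animals the contributions of tail and heart cannot be told apart, nor can fewer muscle cells and less RNA per muscle cell. The word cardiac refers to the vertebrate protein in the annotation and not to a measured place of expression. The study classed GSOIDT00011789001 as *trans*-spliced, that is, carrying the short spliced leader RNA at its 5′ end, and GSOIDT00008618001 as not *trans*-spliced, and it listed neither among the mRNAs stocked in oocytes. Neither identifier was found in the RefSeq gene table supplied for the species, so that position, length and sequence are not given. Levels of the 2 gene models were therefore compared with each other only as ratios in which length cancels.

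The total RNA libraries held between 13041273 and 22839600 reads and the RPF libraries between 261745 and 1488886, with both RPF libraries of replicate 2 the shallow ones. GSOIDT00008618001 collected 4064 reads over all libraries and GSOIDT00011789001 5150. In the shallow RPF libraries they had between 8 and 26 reads, and intervals quoted for single libraries cover counting error only. The sources used here do not say how reads that match several places were counted, so that reads from any stretch shared by the 2 gene models are uncertain.

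Total RNA of GSOIDT00008618001 was higher in both release samples than in both stasis samples. Its level in CPM, reads brought to a common library size with TMM factors, was 33.5 and 28.6 in stasis replicates 1 and 2, and 116 and 51.0 in release replicates 1 and 2. The states did not overlap, a pattern that 31.3% of all gene models tested also showed. Release replicate 1 stood far above release replicate 2, by 2.28-fold, while the stasis replicates lay within 1.17-fold of each other. Release replicate 2 was 1.52-fold and 1.78-fold above the stasis samples, and its 95% counting interval of 48.0 to 54.1 CPM lay above those of stasis, which ended at 36.6 CPM. The mean was 31.1 ± 3.43 CPM (SD, n = 2) for stasis and 83.5 ± 46.1 CPM (SD, n = 2) for release, and the fitted log2 fold change was 1.42 (standard error 0.38, 95% interval 0.48 to 2.36), with 99.2% of gene models tested showing a smaller change. This did not pass the threshold of 0.05 after adjustment over all gene models (edgeR's quasi-likelihood test, Benjamini-Hochberg adjusted p = 0.0744).

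The call for GSOIDT00008618001 differed between the fits tried. DESeq2 called it higher on release (log2 fold change 1.43, adjusted p = 0.00152), along with 9.44% of the gene models it tested. It was also called in edgeR without stasis replicate 1 (1.53, adjusted p = 0.000355) and without stasis replicate 2 (1.31, adjusted p = 0.000991), fits that called 15.3% and 18.1% of all gene models higher. Leaving out a sample leaves its state with 1, which is assumed to vary like the other state, so that these fits take their spread from 1 state alone and bear on all gene models at once. Without release replicate 1 its log2 fold change was 0.71 (edgeR adjusted p = 0.199) and without release replicate 2 it was 1.90 (edgeR adjusted p = 0.264). For comparison, 6.8% of all gene models were called higher on release by the same edgeR test over all 4 libraries, and 17.3% were higher at an unadjusted p under 0.05. Of the 2 MyBP-C gene models, 0 were called and 1 was higher at an unadjusted p under 0.05.

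GSOIDT00011789001 had a smaller total RNA change, although 93.9% of gene models tested lay below it. Its level was 54.2 and 51.7 CPM in stasis and 134.5 and 56.9 CPM on release, so that release replicate 2 was 1.05-fold and 1.10-fold above the stasis samples. The counting interval of release replicate 2, 53.8 to 60.2 CPM, overlapped that of stasis replicate 1, 50.5 to 58.1 CPM. Scaled to library totals (RPM) in place of TMM, release replicate 2 at 53.7 RPM fell between the stasis samples at 58.0 and 53.3 RPM, and the states overlapped. Release replicate 1 was apart from the other samples, 2.36-fold above release replicate 2. The mean was 53.0 ± 1.78 CPM (SD, n = 2) for stasis and 95.7 ± 54.9 CPM (SD, n = 2) for release, and the fitted log2 fold change was 0.85 (standard error 0.38, 95% interval -0.10 to 1.79, edgeR adjusted p = 0.199). Without release replicate 1 the log2 fold change was 0.10 (edgeR adjusted p = 0.763), and without release replicate 2 it was 1.34 (adjusted p = 0.264). It was called higher without stasis replicate 1 (0.88, edgeR adjusted p = 0.0228) and without stasis replicate 2 (0.81, adjusted p = 0.0293), the fits that called 15.3% and 18.1% of all gene models higher.

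**Figure D1:**
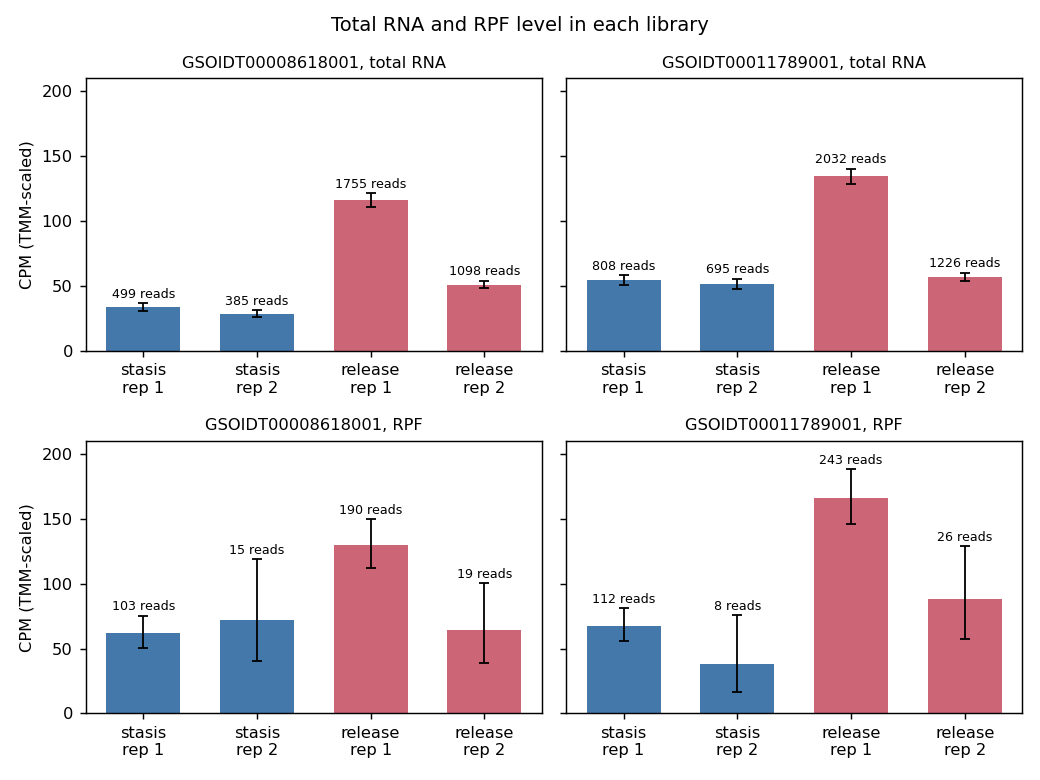
Total RNA (upper row) and RPF (lower row) of both gene models in CPM scaled with TMM factors, one bar per library, with stasis in blue and release in red. Error bars are 95% Poisson intervals of the read count, printed above each bar. Release replicate 1 was the highest library in every panel, and the RPF bars of replicate 2 rest on 8 to 26 reads.

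The RPF reads on both gene models were also most frequent in release replicate 1, but the order of the other libraries differed between them. For GSOIDT00008618001 the RPF level was 62.2 and 72.1 CPM in stasis and 130 and 64.5 CPM on release, from 103, 15, 190 and 19 reads. Release replicate 2 lay between the stasis samples, so that the states overlapped. Its log2 fold change in RPF was 0.57 (standard error 0.66, 95% interval -0.72 to 1.86, edgeR adjusted p = 1), and without release replicate 1 it was -0.05, where the median of all gene models was -0.27. For GSOIDT00011789001 the RPF level was 67.6 and 38.5 CPM in stasis and 166 and 88.3 CPM on release, from 112, 8, 243 and 26 reads. The states did not overlap here, as for 12.8% of all gene models tested, although the counting interval of release replicate 2 (57.7 to 129 CPM) included the higher stasis sample. Its log2 fold change in RPF was 1.22 (standard error 0.65, 95% interval -0.06 to 2.51, edgeR adjusted p = 1), and it was between 0.69 and 1.75 with each sample left out. Without stasis replicate 1, the sample left out at 1.75, the median RPF change of all gene models was itself 0.69.

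Few gene models passed the threshold in RPF. In edgeR's quasi-likelihood test 0% of gene models were called higher on release and 0.00685% (1 gene model) lower, while 53 were higher and 108 were lower with an unadjusted p under 0.05, and DESeq2 called 0. Neither MyBP-C gene model was called in RPF under any of the alternatives tried. A log2 fold change of up to 1.86 in GSOIDT00008618001 and of up to 2.51 in GSOIDT00011789001 lay within the 95% intervals. These take in both read depth and the spread between replicates.

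In TE the 2 gene models had values in opposite directions, and neither change passed its test. TE was calculated as the RPF level over the total RNA level in RPM, so that gene length cancels. GSOIDT00008618001 had a TE of 1.93 (95% counting interval 1.55 to 2.39) and 1.94 (1.08 to 3.24) in stasis and of 1.38 (1.18 to 1.60) and 1.28 (0.768 to 2.01) on release. Both release samples were lower than both stasis samples, which held for 8.67% of the 7647 gene models with reads in all libraries. GSOIDT00011789001 had a TE of 1.30 (1.06 to 1.58) and 0.574 (0.247 to 1.14) in stasis and of 1.52 (1.33 to 1.74) and 1.57 (1.02 to 2.31) on release. Here both release samples were higher than both stasis samples, which held for 20.4% of those gene models. With TMM factors in place of library totals the states of GSOIDT00008618001 stayed apart, at 1.86 and 2.52 in stasis and 1.12 and 1.27 on release, whereas those of GSOIDT00011789001 overlapped, at 1.25 and 0.744 in stasis and 1.24 and 1.55 on release.

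**Figure D2:**
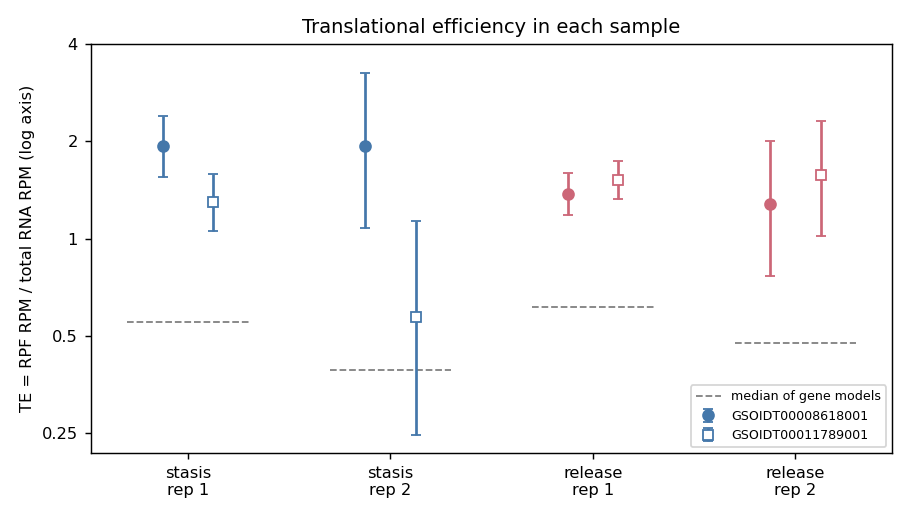
TE of both gene models in each sample, as RPF RPM over total RNA RPM on a log axis, with GSOIDT00008618001 as filled circles and GSOIDT00011789001 as open squares, stasis in blue and release in red. Error bars are 95% Clopper-Pearson intervals from the read counts, and dashed lines mark the median of the 7647 gene models with reads in all libraries. Both gene models lay above the median in all samples. The order of their point values was reversed between stasis and release, with intervals that overlapped in every sample.

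Both had a TE above the median gene model in every sample. In the order of stasis replicates 1 and 2 and release replicates 1 and 2, the TE of GSOIDT00008618001 exceeded that of 92.1%, 95.3%, 83.3% and 88.6% of the 7647 gene models, and it was 3.49, 4.93, 2.25 and 2.69 times their median. GSOIDT00011789001 exceeded 83.8%, 68.1%, 86.1% and 92.0% of them, at 2.35, 1.46, 2.48 and 3.30 times the median. The lowest of these values, in stasis replicate 2, rests on 8 RPF reads.

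The 95% interval of the change in TE included 0 for both gene models in the model over all 8 libraries. The log2 change from stasis to release was -0.77 (standard error 0.63, 95% interval -2.13 to 0.60) for GSOIDT00008618001 and 0.34 (standard error 0.66, 95% interval -1.09 to 1.77) for GSOIDT00011789001. Neither passed the threshold when edgeR tested whether RPF and total RNA changed differently between states (adjusted p = 0.866 and 0.968). Of all gene models 0% were called higher on release in this edgeR test, while 357 were higher and 510 were lower with an unadjusted p under 0.05. DESeq2 reported an adjusted p for 4974 gene models, of which it called 3 higher and 22 lower. The sign of both changes was the same under all alternatives tried, with values between -0.94 and -0.48 for GSOIDT00008618001 and between 0.19 and 0.96 for GSOIDT00011789001. The value of 0.96 was that without stasis replicate 1, where the median of all gene models was 0.68. Scaling to library totals in place of TMM moved the median change of all gene models from -0.03 to 0.22 in TE, from -0.02 to -0.16 in total RNA and from 0.03 to 0.15 in RPF.

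The ratio of reads on GSOIDT00008618001 to reads on GSOIDT00011789001 within a library needs no scaling. In total RNA it was 0.618 (95% Clopper-Pearson interval 0.551 to 0.691) and 0.554 (0.488 to 0.628) in stasis and 0.864 (0.810 to 0.921) and 0.896 (0.825 to 0.972) on release. The intervals of the replicates of a state overlapped, and the release samples stood above the stasis samples with intervals that did not meet. By Fisher's exact test on the reads of 2 libraries, which compares those libraries and not the states, stasis and release differed for replicate 1 (adjusted p = 1.11e-06 over 8 such tests) and for replicate 2 (adjusted p = 1.61e-09), whereas no difference passed the threshold between the stasis samples (adjusted p = 0.347) or the release samples (adjusted p = 0.563). On the log2 scale the ratio had a mean of -0.77 ± 0.11 (SD, n = 2) in stasis and of -0.19 ± 0.04 (SD, n = 2) on release, a difference of 0.59. An exact permutation test over the samples gave p = 0.333 (two-sided), the smallest value that 2 samples against 2 allow. Relative to GSOIDT00011789001, total RNA of GSOIDT00008618001 was thus higher in both release samples, including release replicate 2, in which the level of GSOIDT00011789001 was close to that of stasis.

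In the RPF reads the ratio did not follow that of total RNA. It was 0.920 (0.697 to 1.21) and 1.88 (0.746 to 5.11) in stasis and 0.782 (0.643 to 0.949) and 0.731 (0.382 to 1.37) on release, lower in both release samples than in both stasis samples. All 4 intervals overlapped, and Fisher's exact test gave no difference between stasis and release past the threshold for replicate 1 (adjusted p = 0.476) or replicate 2 (adjusted p = 0.258). On the log2 scale the difference between the states was -0.80 (exact permutation test, p = 0.333, the smallest possible), and without stasis replicate 2 it was -0.28.

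The TE of GSOIDT00008618001 over that of GSOIDT00011789001 was 1.49 (95% interval of Fisher's exact test 1.10 to 2.01) and 3.38 (1.33 to 9.29) in stasis, and 0.905 (0.737 to 1.11) and 0.816 (0.424 to 1.54) on release. In the libraries of each stasis sample the gene model without the spliced leader carried more RPF reads per total RNA read than the *trans*-spliced one, in replicate 1 (Fisher's exact test, adjusted p = 0.0167 over 4 tests) and in replicate 2 (adjusted p = 0.0167), the latter from 15 and 8 RPF reads. On release the ratio was below 1 in both samples and its intervals included 1 (Fisher's exact test, adjusted p = 0.446 and 0.549). These tests also compare single samples and cover counting error only, so that they say nothing of the states. Over all 4 samples the mean log2 ratio was 0.47 ± 0.94 (SD, n = 4), above 0 in 2 of them, and did not differ from 0 beyond this spread (exact sign-flip permutation test, two-sided, p = 0.5), in a design that cannot reach 0.05. Between the states it differed by -1.38 on the log2 scale (exact permutation test, two-sided, p = 0.333, the smallest possible).

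**Figure D3:**
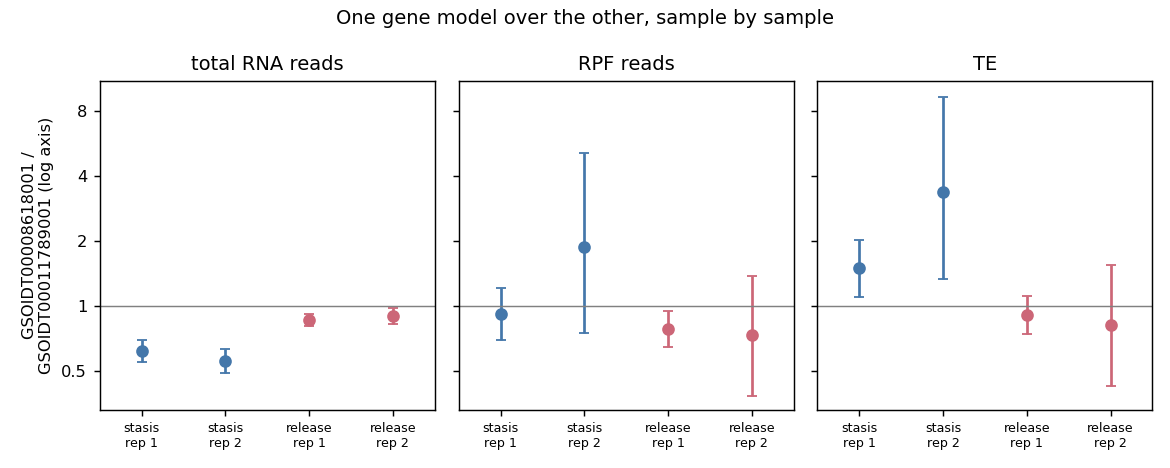
GSOIDT00008618001 over GSOIDT00011789001 in total RNA reads, RPF reads and TE, on a log axis, one point per sample, with stasis in blue and release in red. Error bars are 95% exact intervals from the counts, and the line marks 1. The total RNA ratio lay at 0.618 and 0.554 for stasis against 0.864 and 0.896 for release, and the TE ratio was above 1 in both stasis samples and below 1 in both release samples.

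MyBP-C works within a sarcomere, and it was set beside a list of 21 gene models with muscle or sarcomere annotations. Of these, 20 had enough reads to be tested. The list was not limited to sarcomere parts, as it also held calsequestrin 2 and a myosin light chain kinase. The list came from the 1998 annotation rows used here and not from all 17212 gene models, so that it may lack other muscle genes. In total RNA, 17 of the 20 (85.0%) lay above 0, with a median log2 fold change of 1.00, beside 48.0% of all gene models and a median of -0.02. After adjustment over all gene models 1 was higher and 0 were lower, while 11 and 1 were so at an unadjusted p under 0.05. Over all gene models 6.8% were higher after adjustment, close to the 1 of 20 here, and 17.3% were higher before it. In RPF the list's median log2 fold change was 0.26, with 13 of 20 above 0, beside 0.03 for all gene models, and edgeR called 0. Before adjustment 5 of the list were higher and 0 were lower in RPF, beside 53 and 108 of all 14595 gene models. The total RNA change of GSOIDT00008618001 was exceeded by 4 of the 20 and that of GSOIDT00011789001 by 12. For the RPF change these counts were 8 and 5. The list's median total RNA change was 0.32 without release replicate 1 and 1.497 without release replicate 2.

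Of the thick filament partners of MyBP-C, the myosin heavy chains that form the motor, the list held 7. All 7 lay above 0 in total RNA (median 1.08), 0 passed the adjusted threshold, and 4 were higher at an unadjusted p under 0.05. Over all gene models 6.8% were higher after adjustment and 17.3% before it. The heavy chain gene model with the most total RNA reads in stasis, GSOIDT00010986001, had 679 and 753 CPM in stasis and 2204 and 891 CPM on release (log2 fold change 1.11, edgeR adjusted p = 0.144). The next, GSOIDT00005710001, had 221 and 354 CPM in stasis and 770 and 319 CPM on release (0.92, edgeR adjusted p = 0.222). In both, release replicate 1 was the highest sample, as for MyBP-C, and in RPF the heavy chains' median log2 fold change was 1.65, against 0.18 for the thin filament gene models and 0.57 and 1.22 for the MyBP-C gene models.

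On the thin filament, which carries actin, the tropomyosin and troponin that gate access to it, and nebulin, a protein bound along it, 8 of 9 gene models were tested and 8 lay above 0 in total RNA, with a median of 1.04. The changes of these 8 ranged from 0.06 to 1.63. Tropomyosin GSOIDT00015647001 was the gene model of the list that passed the adjusted threshold, with 9.93 and 7.96 CPM in stasis and 34.3 and 21.4 CPM on release (log2 fold change 1.63, edgeR adjusted p = 0.0299). Its fitted RPF and TE changes were negative, at -1.21 (standard error 1.54) and -3.10 (standard error 0.805), and neither change was called. They rest on few RPF reads, at 11.5 and 9.61 CPM in stasis and 3.42 and 6.79 CPM on release. Closest to GSOIDT00008618001 in its total RNA change was tropomyosin GSOIDT00015643001 (1.33, edgeR adjusted p = 0.127), and closest to GSOIDT00011789001 was the nebulin-annotated GSOIDT00009694001 (0.85, edgeR adjusted p = 0.120). The latter had 73.0 and 70.0 CPM in stasis and 168 and 89.5 CPM on release. Of the remaining list, the regulatory myosin light chain GSOIDT00002370001 had a log2 fold change of 1.85 (edgeR adjusted p = 0.0643), and the myosin light chain kinase GSOIDT00003019001, at -0.76 (edgeR adjusted p = 0.0756), was the gene model lower at an unadjusted p under 0.05. The 3 gene models with other muscle annotations had a median of -0.05 in total RNA, with 1 of them above 0.

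In TE the list had a median log2 change of -0.37, with 9 of 20 above 0, beside -0.03 for all gene models. The heavy chains had a median of 0.55 with 4 of 7 above 0, and the thin filament gene models -0.97 with 3 of 8 above 0. In the RPF libraries, 2 of the 20 had no reads in stasis replicate 2 and 3 had none in release replicate 2. The RPF and TE medians of the list thus rest in part on few reads. No gene model of the list was called in edgeR's test of TE, and at an unadjusted p under 0.05 there were 0 higher and 2 lower. Over all 14595 gene models these counts were 357 and 510. The TE change of GSOIDT00008618001, at -0.77, was exceeded by 12 of the 20 and that of GSOIDT00011789001, at 0.34, by 9.

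**Figure D4:**
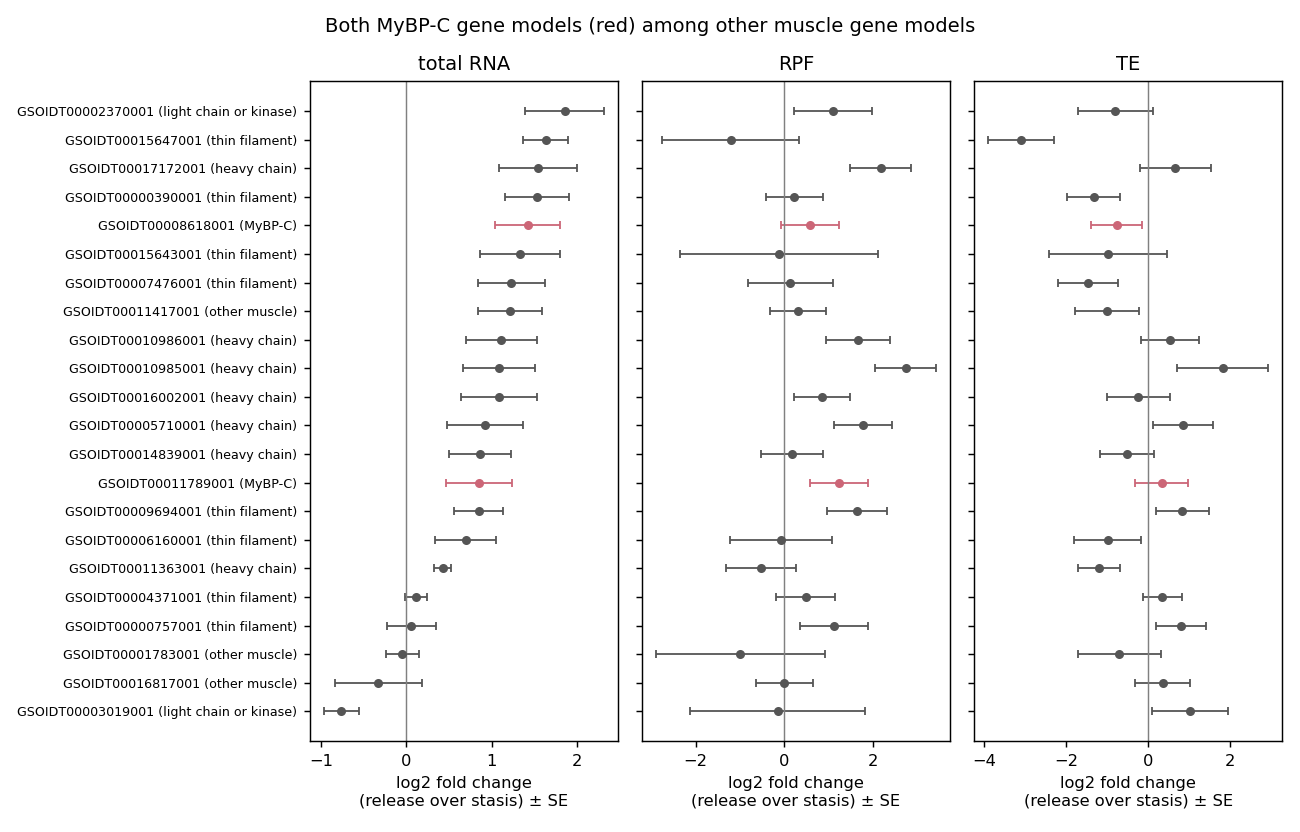
Log2 fold change from stasis to release in total RNA, RPF and TE for both MyBP-C gene models (red) and the 20 other muscle gene models tested (grey), ordered by the change in total RNA, with bars of 1 standard error. In total RNA GSOIDT00008618001 ranked among the upper gene models, exceeded by 4 of the 20, and GSOIDT00011789001 was exceeded by 12.

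The muscle list as a whole was also highest in release replicate 1. Its total RNA, summed over the list, came to 1803 and 1990 CPM for stasis and 5710 and 2462 CPM for release, and 19 of its 20 gene models were higher in release replicate 1 than in release replicate 2 (median log2 difference 0.90), beside 7037 of all 14595 (median -0.01). Its summed RPF level was 1684 and 1572 CPM in stasis and 6379 and 2309 CPM on release. Whether the difference between the release pools contributes to the change in MyBP-C was not tested.

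Relative to the muscle list the 2 gene models had values in different directions in total RNA. Per 1000 total RNA reads on the 20 list gene models, GSOIDT00008618001 had 18.6 and 14.4 reads in stasis and 20.3 and 20.7 on release. GSOIDT00011789001 had 30.1 and 26.0 in stasis and 23.6 and 23.1 on release. By this measure, which is free of library scaling, the release replicates lay close together for both gene models. GSOIDT00008618001 had higher values in both release samples, as had 0.164% of all gene models, but the counting interval of stasis replicate 1 (17.0 to 20.3) overlapped those of release (19.4 to 21.3 and 19.5 to 22.0). GSOIDT00011789001 had lower values in both release samples, as had 69.9% of all gene models on this scale. Both shares reflect the scale, which falls wherever the list itself is high. The 0.164% thus does not show that the rise was particular to GSOIDT00008618001 among muscle gene models, whose own share was not counted. Per 1000 RPF reads on the list, GSOIDT00008618001 had 36.9 and 45.9 in stasis and 20.4 and 27.9 on release, lower in both release samples as for 34% of all gene models, while GSOIDT00011789001 had 40.2 and 24.5 in stasis and 26.0 and 38.2 on release, with overlapping states. Most of the list's reads lay on the heavy chains, so that these shares are mainly relative to them.

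**Figure D5:**
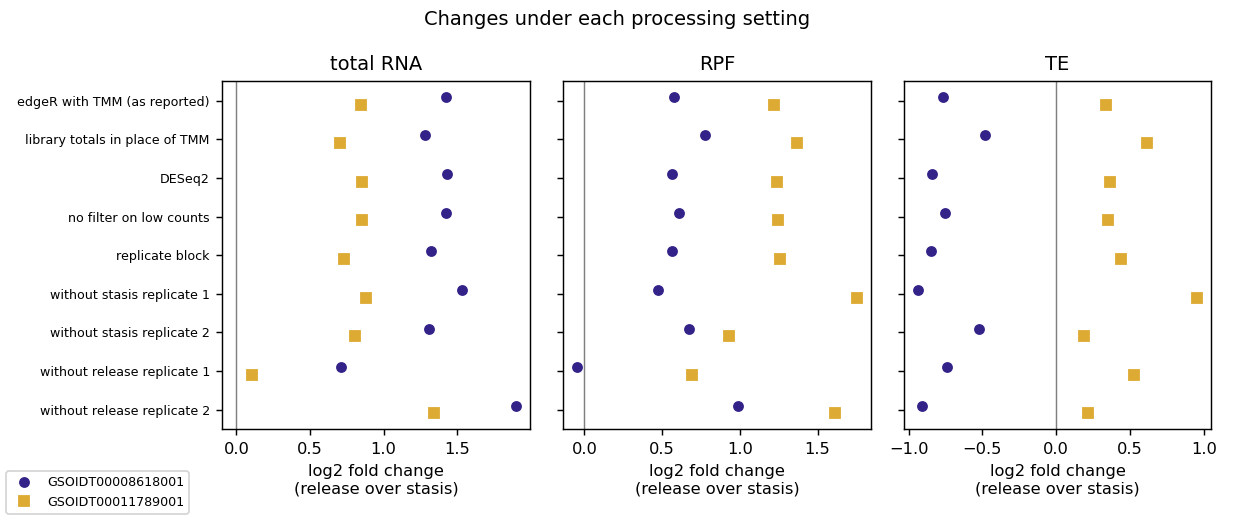
Log2 fold change from stasis to release of GSOIDT00008618001 (circles) and GSOIDT00011789001 (squares) in total RNA, RPF and TE under each processing setting. In every setting shown, the total RNA change was larger for GSOIDT00008618001 and the RPF and TE changes were larger for GSOIDT00011789001; without release replicate 1 the total RNA changes were 0.71 and 0.10.

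Gene models with a profile most like that of MyBP-C were searched among all those tested, as the smallest root mean square difference of log2 CPM over the 8 libraries after centring within total RNA and within RPF. For GSOIDT00008618001 these were GSOIDT00007140001 (0.22), GSOIDT00012787001 (0.24) and tropomyosin GSOIDT00000390001 (0.28), with 19, 42 and 415 RPF reads in all, beside a median of 0.97 over all gene models. For GSOIDT00011789001 they were GSOIDT00006103001 (0.21), GSOIDT00004370001 (0.23) and the nebulin-annotated GSOIDT00009694001 (0.24), beside a median of 0.98. The 2 MyBP-C gene models differed from each other by 0.43, which placed GSOIDT00011789001 at rank 56 of 14594 for GSOIDT00008618001, and GSOIDT00008618001 at rank 118 for GSOIDT00011789001. The gene models for which no annotation is given lay outside the annotation rows used.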

How the data were processed

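Libraries came from whole animals in stasis and on release, each with 2 replicates and both assays. The authors clipped adapters, removed rRNA and tRNA reads with Bowtie2 2.1.0, mapped with TopHat2 2.0.13 on Genoscope gene models and deposited raw counts per protein-coding gene (featureCounts). Genome build, strand setting and handling of multiply matching reads were not stated in the sources used here.

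Gene models were tested if their reads, summed over the 8 libraries, came to 100 or more (14595). Release was compared with stasis by edgeR 4.0.16 in R 4.3.3 (TMM, glmQLFit, glmQLFTest, Benjamini-Hochberg over all gene models, threshold 0.05). TE change was tested as a state-by-assay interaction in all 8 libraries, with TMM factors within each assay. Standard errors were derived from each log2 change and its F statistic. The babel package of the study was not used. Alternatives were library totals, DESeq2 1.42.0, no filter, a block, TMM over all libraries, a ratio of mean RPM and leaving out each sample. The fits were also run on simulated counts with the same dispersion for all gene models and no shift between replicates, so that this run does not cover such shifts. Single-library intervals are 95% Poisson or Clopper-Pearson. Ratios and figures used Python 3.11.15, scipy 1.17.1 and matplotlib 3.10.9.

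The members and the muscle list, taken from annotation, were chosen with earlier results of these data known. Muscle gene models were named if past the threshold, if among the 2 with the most total RNA in stasis, or if closest to a member in total RNA change, and GSOIDT00002370001 and GSOIDT00003019001 were named after their values were seen. For each member the 3 most similar profiles were named (prior count 2). The read ratio of the 2 gene models in total RNA and in RPF, and their reads per 1000 muscle reads, were added after the data were seen. The total RNA and RPF library of a sample came from the same pool (per the methods), which pairs the assays in TE. A sample block left both TE changes without a call. Deviations from the state mean correlated across gene models with r = 0.013 in stasis and 0.074 on release.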

Additional observations from a re-analysis of the deposited data

How the results depend on the processing

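GSOIDT00008618001 passed the threshold in total RNA with DESeq2 (log2 fold change 1.43) and with a replicate block (1.32, edgeR adjusted p = 0.0394, in a fit that called 1212 gene models higher). Replicate numbers are shared by the states without a stated pairing, and deviations of same-numbered samples correlated with r = 0.196 in total RNA and 0.14 in RPF. With each sample left out in turn its total RNA change was between 0.71 and 1.90 and that of GSOIDT00011789001 between 0.10 and 1.34, and the median of the muscle list was between 0.32 and 1.497. The RPF change of GSOIDT00008618001 was between -0.048 and 0.985 and was below 0 (-0.048) without release replicate 1, where the median of all gene models was -0.27. The number of gene models called was 1325 in total RNA (0 to 4796 with a sample left out), 1 in RPF (0 with library totals, 0 with DESeq2, 0 without the filter, 0 to 39 with a sample left out) and 0 in TE (25 with DESeq2, 0 to 167 with a sample left out). Scaling to library totals changed 993 higher and 332 lower total RNA calls to 675 and 888. The replicate block changed no other call of the 2 gene models. Of 94 values under alternatives, 72 kept their call and sign, stayed within the spread or, for counts of gene models called, stayed close. Another 6 came to pass the threshold, 15 moved and 1 changed sign. A kept call can go with a much smaller change, as for both gene models in total RNA without release replicate 1 (0.71 and 0.10). The RPF libraries of replicate 2 were shallow, so that their counting intervals in RPF and TE were wide. The release replicates also differed in total RNA, by 2.28-fold for GSOIDT00008618001 and 2.36-fold for GSOIDT00011789001. The cause of the differences between settings was not tested.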
